A study of Mus musculus with 12 samples.

Results

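The genes described here are the Rab GTPases, the family of small GTP-binding proteins that direct vesicle traffic. Members were chosen by name alone, as every gene in the deposited count table whose symbol fitted 1 form. That form is Rab followed by a number, at most 1 letter from a to d and at most 1 further digit. Effectors and regulators named for Rab proteins were thereby left out, as was any Rab gene under a symbol of another form. The rule took 57 of 23420 genes, and 42 of the 57 had enough reads to be among the 11806 genes tested.

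The libraries are bulk RNA-seq of macrophages sorted from marrow nucleated cells of C57BL/6 mice, at 6 from tibias treated with mesenchymal stromal cells (MSCs, fibroblast-like support cells of the marrow) and 6 from untreated femurs. Each of 2 mice, numbered 19 and 7, gave 3 libraries per bone, and the labels name the tibial cells MSC-educated. Only tibias received MSCs and only femurs served as controls, which means that the effect of treatment and that of the bone cannot be told apart. The leukaemia named in the study's title is not described for these animals, nor are the animals' age, the route or time of MSC delivery, or the sorting gate. The labels do not say whether the 3 libraries of a bone were separate sorts, so p-values over 12 libraries measure the spread between libraries and not between animals.

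A Rab protein cycles between a GTP-bound form, held on the membrane of 1 organelle, and a GDP-bound form that can be carried through the cytosol. Exchange factors load GTP, GTPase-activating proteins (GAPs) end the active state, GDP dissociation inhibitors extract the protein from membranes, and effectors such as tethers and motor adaptors bind the active form. Attachment needs geranylgeranyl lipids on cysteines at the very end of the protein, added by Rab geranylgeranyl transferase with the help of an escort protein. In macrophages the family is best known for phagosome maturation, in which an early phagosome carrying Rab5 gives way to a late one carrying Rab7 that fuses with lysosomes.

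The prenylation site is the feature that the family shares and that the naming rule did not use, so the last 36 coding bases before the stop codon are shown for members from several branches of traffic. Bases are from GENCODE M21 transcripts on GRCm38, written 5′ to 3′ on the coding strand, with cysteine codons among the last 5 codons in capitals. Locations follow the sequences.
Rab1: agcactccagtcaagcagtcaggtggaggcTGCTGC
Rab2a: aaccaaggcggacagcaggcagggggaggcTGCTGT
Rab43: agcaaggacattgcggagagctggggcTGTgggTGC
Rab11a: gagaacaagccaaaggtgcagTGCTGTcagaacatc
Rab8a: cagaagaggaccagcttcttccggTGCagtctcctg
Rab7: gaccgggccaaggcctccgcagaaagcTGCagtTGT
Rab32: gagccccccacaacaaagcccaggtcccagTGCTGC
Rab27a: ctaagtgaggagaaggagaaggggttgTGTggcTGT

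These 8 stretches lie on the plus strand at chr11:20224807-20224842 (Rab1), chr4:8606465-8606500 (Rab2a), chr8:72180099-72180134 (Rab8a) and chr9:73095418-73095453 (Rab27a). The minus strand carries those at chr6:87792593-87792628 (Rab43), chr9:64716852-64716887 (Rab11a), chr6:88000438-88000473 (Rab7) and chr10:10546305-10546340 (Rab32). In Rab1, Rab2a and Rab32 both cysteine codons come last, in Rab43, Rab7 and Rab27a another codon separates them, and in Rab11a they are followed by further codons. Rab8a has a single cysteine codon. Over the family, 48 of 57 members had 2 cysteine codons in this window and 9 had 1, namely Rab8a, Rab8b, Rab13, Rab18, Rab23, Rab28, Rab38, Rab40b and Rab40c. Coding lengths ran from 194 to 973 codons with a median of 215, the longest being Rab44, a large Rab with extra domains ahead of the GTPase.

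The sorted cells held transcripts of every branch of the family, at levels that differed widely between members. These are levels of the whole sort, in which mature neutrophil markers summed to a median of 24147 CPM in tibia and 22467 CPM in femur. Macrophage markers summed to 16883 CPM in tibia and 17862 CPM in femur, mostly from Lyz2 (median 13431 CPM in tibia and 14492 CPM in femur). The levels therefore cannot be assigned to macrophages alone, and sums of unlike marker lists do not rank the cell types. Exon length here counts every base that is exonic in any annotated transcript, so the order below depends on the annotation as well as on reads. Rab14, with a mean of 272.2 CPM in tibia and 273.0 CPM in femur, stood at 20.1 CPM per kb with 13589 exon bases. Per kilobase of exon, the highest was Rab5c, an early endosome Rab, at 143.1 CPM per kb over the 12 libraries (CPM being counts scaled to a common library total). It was followed by Rab32, which works at lysosome-related organelles, at 98.8 CPM per kb. Next came Rab1b at 86.5 and Rab1 at 66.9 CPM per kb, the pair that carries cargo from the endoplasmic reticulum (ER) to the Golgi. Rab2a at 60.2, Rab7 at 57.6 and Rab8b at 57.1 CPM per kb came next and lay within each other's spread. The secretory granule members Rab27a (52.4 CPM per kb), Rab3d (47.5) and Rab44 (41.3) stood among the 16 highest, while their relatives Rab3a (2.28) and Rab37 (1.01) were low. Tested members had a median level of 21.7 CPM per kb, and the lowest were Rab38 at 0.735, Rab23 at 0.474 and Rab6b, a brain relative of Rab6a, at 0.318 CPM per kb. The highest level was 449.6 times the lowest.

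**Figure D1:**
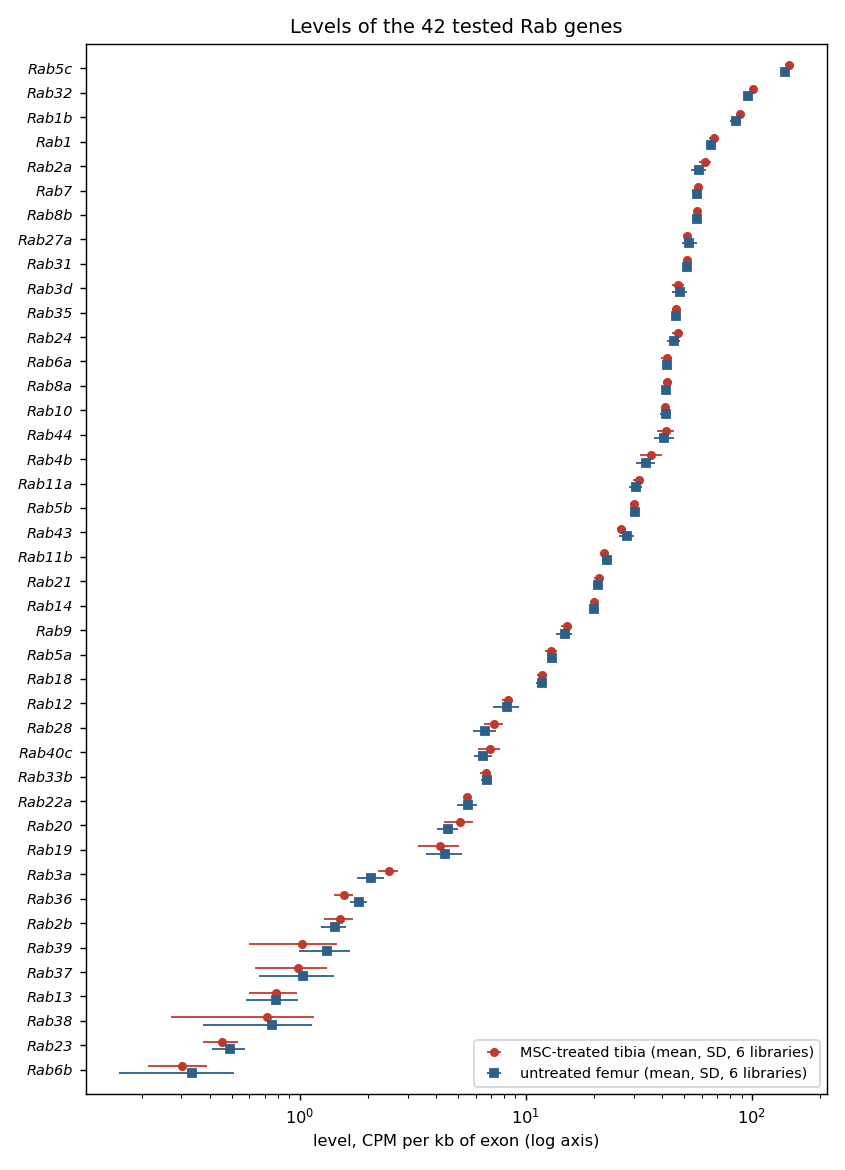
Level of each of the 42 tested Rab genes in CPM per kb of exon on a log axis, with MSC-treated tibia as circles and untreated femur as squares (mean and SD over 6 libraries each). The order runs from Rab5c at 143.1 to Rab6b at 0.318 CPM per kb, and the tibia and femur points of a gene lie close together across the whole range.

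The other 15 members were at or near the limit of detection in both bones and were not tested. They were Rab3b, Rab3c, Rab4a, Rab9b, Rab15, Rab17, Rab25, Rab26, Rab27b, Rab30, Rab33a, Rab34, Rab39b, Rab40b and Rab42. Together they had 145 counts in the 6 tibia libraries and 125 in the 6 femur libraries, and no member exceeded 10 counts in any library. Rab27b, the partner of Rab27a in granule release in other cells, had 16 counts in tibia and 16 in femur, and Rab34, linked to phagosome maturation and cilia, had 18 in tibia and 10 in femur. The early endosome gene Rab4a had 17 counts in tibia and 33 in femur. Rab3c and Rab9b had 0 counts in all 12 libraries, which allows up to 0.405 to 0.617 CPM per library for counting error alone. Several families were thus represented by 1 expressed copy, with Rab4b but not Rab4a and Rab9 but not Rab9b above the filter.

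No Rab gene passed the threshold between MSC-treated tibia and untreated femur over the 12 libraries in edgeR's quasi-likelihood test with the mouse as a term. Of the 42 members 0 were higher, against 3.51% of all genes tested, 0 were lower, against 3.69%, and 0 changed in either direction, against 7.2%. The lowest Benjamini-Hochberg adjusted p of a member in edgeR was 0.132, for Rab2a, and DESeq2 also called 0 members, with a lowest adjusted p of 0.119. At an unadjusted p under 0.05 there were 4 members, Rab2a and Rab5c on the higher side and Rab36 and Rab43 on the lower side. Rab2a was called (adjusted p 0.0267) when tibia library 3 of mouse 19 was left out. The 4 were 9.52% of the members, against 20.8% of all genes. With the 3 libraries of a bone added together, leaving 1 sum per animal and bone, edgeR called 0 members higher, against 0.407% of genes, and 0 lower, against 0.144%, with a lowest adjusted p of 0.520 and 0 members at an unadjusted p under 0.05, against 10.3% of all genes. In bulk RNA a change in the share of a cell type and a change in RNA per cell cannot be told apart, and this holds for every value below.

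The intervals give the size of change these libraries could still hold. For 21 of 42 members the whole 95% interval of the tibia over femur change lay within 1.1-fold in either direction, against 19.3% of all genes. Within 1.2-fold lay 30 members, against 57.4% of all genes, and within 2-fold lay all 42, against 94.1%. These shares depend on level, since 31 of 42 members had a mean of at least 20 CPM, as did 7056 of 11806 genes. At that level the median coefficient of variation over the 12 libraries was 5.2% for members and 7.5% for all genes. Among the 31 members with a mean of at least 20 CPM, log2 changes ran from -0.08 to 0.12 and their interval bounds from -0.17 to 0.27. The 11 members under 20 CPM were less certain, with log2 changes from -0.39 to 0.26 and bounds from -0.88 to 0.68. A total of 23 members had a positive and 19 a negative log2 change, with a median of 0.003 against -0.002 for all genes, and the median size of the change was 0.039 against 0.079. The summed level of all members had a low, median and high of 4274, 4411 and 4560 CPM in tibia, against 4343, 4365 and 4436 CPM in femur, so the bones overlapped.

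**Figure D2:**
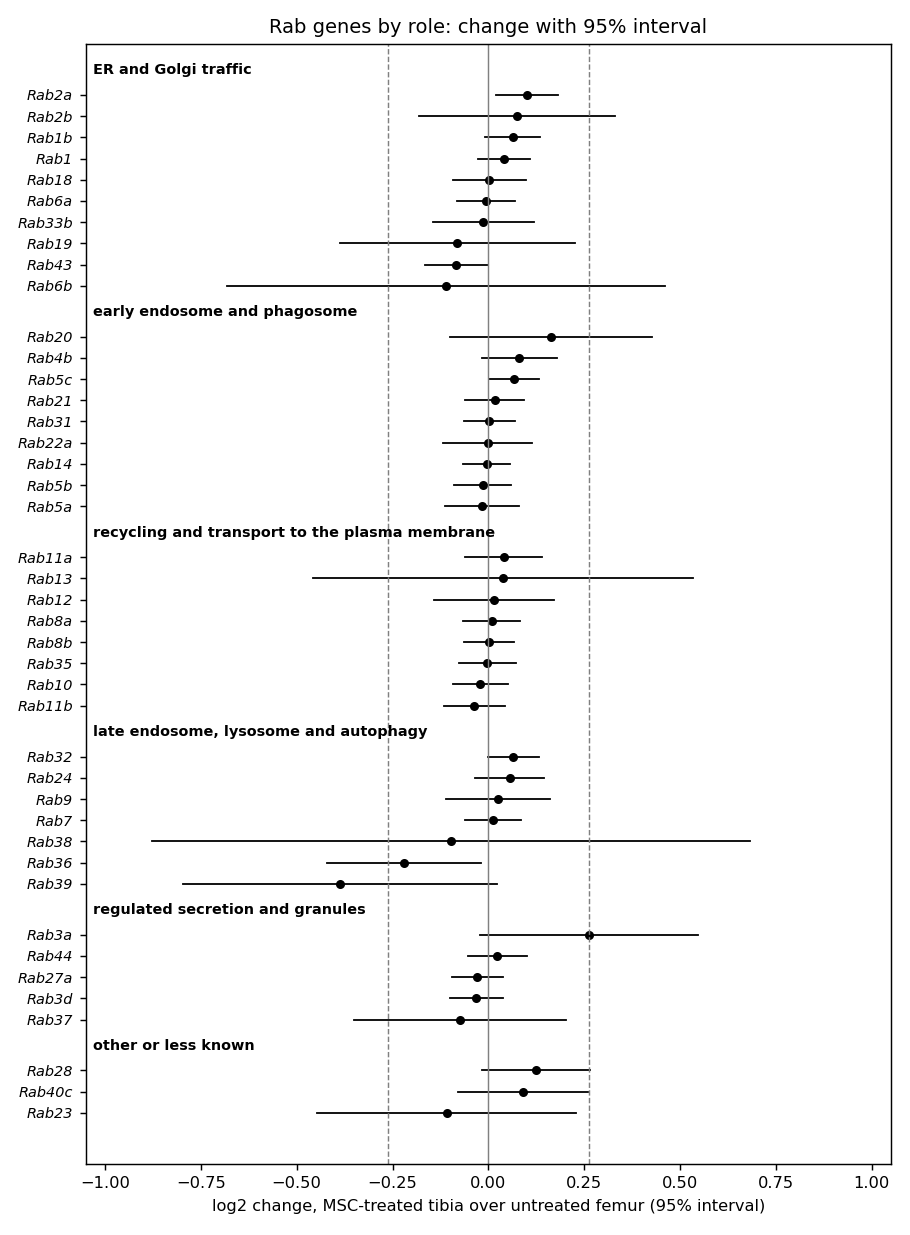
Log2 change of each tested Rab gene, MSC-treated tibia over untreated femur, with its 95% interval from edgeR over 12 libraries, grouped by role. Dashed lines mark 1.2-fold in either direction, and the 30 members with intervals inside them include the expressed Rab1, Rab5, Rab7, Rab8 and Rab11 genes, while the 12 outside are Rab28 and the 11 members under 20 CPM, such as Rab38 and Rab6b.

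Among the 10 tested members of ER and Golgi traffic, 0 passed the threshold and the median log2 change was -0.002, the same as over all genes. Rab2a, which acts in traffic between the ER and the Golgi and on late endosomes, had a low, median and high of 122.9, 132.0 and 143.8 CPM in tibia, against 114.9, 123.2 and 134.3 CPM in femur. Its log2 change was 0.10 (SE 0.039, 95% interval 0.019 to 0.18, adjusted p 0.132 in edgeR). Within mouse 7 all 3 tibia libraries lay above all 3 femur libraries, and within mouse 19 the bones overlapped. Rab1 had 238.7, 258.3 and 274.7 CPM in tibia, against 240.4, 251.2 and 256.8 CPM in femur (log2 change 0.04), and Rab1b, its close copy, had a log2 change of 0.06 (adjusted p 0.312 in edgeR). Rab6a, which moves vesicles back through and out of the Golgi, had 144.7, 160.1 and 165.7 CPM in tibia, against 151.8, 156.7 and 166.0 CPM in femur, with a log2 change of -0.01. The bones overlapped for all 3 genes. Rab18 of the ER and lipid droplets, Rab33b of Golgi traffic and autophagy, Rab2b, Rab19 and Rab6b also had intervals that held 0. Rab19, with a mean of 6.60 CPM in tibia and 6.95 CPM in femur, went opposite ways in the mice. Its log2 change was -0.45 in mouse 7 (interval -0.81 to -0.08, adjusted p 0.120 in edgeR). In mouse 19 it was 0.31 (interval -0.07 to 0.69, adjusted p 0.425 in edgeR). The difference of 0.76 (interval 0.23 to 1.28) did not pass the threshold (adjusted p 0.0996 in edgeR).

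Rab43 was the 1 Rab gene that passed the threshold within a single mouse, on the lower side in mouse 7. This is 2.38% of the 42 members, against 5.36% of all genes tested. The gene encodes a Golgi Rab and lies at chr6:87788853-87812164 on the minus strand. In mouse 7 its level was 143.5, 155.8 and 140.7 CPM in the 3 tibia libraries, against 169.5, 164.6 and 161.1 CPM in the 3 femur libraries, with no overlap. In mouse 19 it was 146.0, 142.7 and 145.5 CPM in tibia, against 149.6, 140.9 and 142.8 CPM in femur, and the bones overlapped. The log2 change was -0.17 in mouse 7 (adjusted p 0.0206 in edgeR) and 0.004 in mouse 19 (adjusted p 0.979). Its difference between the mice, 0.17 on the log2 scale, did not pass the threshold (adjusted p 0.176), so the change is not shown to differ between them. The call within mouse 7 was lost without tibia library 1 (adjusted p 0.0716), tibia library 3 (0.141), femur library 1 (0.107) or femur library 2 (0.0568) of that mouse. Of the exon bases of Rab43, 75.4% also belong to the annotated same-strand gene Gm45140, and the labels do not say how the counting treated shared bases.

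Of early endosome and phagosome genes, 9 were tested and 0 passed the threshold, with a median log2 change of 0.003. Rab5c, which with Rab5a and Rab5b drives fusion of early endosomes and marks the young phagosome, had 303.9, 320.4 and 342.6 CPM in tibia, against 299.8, 306.4 and 315.3 CPM in femur. Its log2 change was 0.07 (SE 0.032, interval 0.002 to 0.13, adjusted p 0.220 in edgeR), and the bones overlapped over the 12 libraries. Rab5b had 117.8, 126.7 and 130.7 CPM in tibia, against 125.1, 127.0 and 130.9 CPM in femur, and Rab5a 64.4, 67.8 and 76.3 CPM in tibia, against 66.4, 68.1 and 73.7 CPM in femur. Both had a log2 change of -0.02 with overlapping bones. Rab14, which works between the Golgi and early endosomes and on phagosomes, had the lowest coefficient of variation of the tested members over the 12 libraries, 2.31%. Its levels were 266.8, 271.4 and 280.8 CPM in tibia, against 260.5, 274.8 and 280.6 CPM in femur, and the interval of its log2 change ran from -0.07 to 0.06. Rab31, a relative of Rab22a at the Golgi and endosomes, had 189.0, 196.1 and 204.9 CPM in tibia, against 188.9, 195.5 and 205.4 CPM in femur. Rab21, an endosomal Rab of integrin traffic, and Rab22a had log2 changes of 0.02 and -0.001. Rab20, a phagosome Rab, was low and less certain, with 5.91, 7.06 and 8.36 CPM in tibia, against 5.18, 6.45 and 7.02 CPM in femur (log2 change 0.16, interval -0.10 to 0.43).

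The 8 tested genes of recycling and of transport to the plasma membrane had 0 past the threshold, and 0 also at an unadjusted p under 0.05. Rab8a had 189.6, 192.6 and 207.8 CPM in tibia, against 183.2, 197.0 and 204.1 CPM in femur, and its copy Rab8b had 258.7, 272.1 and 276.8 CPM in tibia, against 250.0, 269.1 and 284.2 CPM in femur. Their log2 changes were 0.01 and 0.002. Rab10, also of exocytic traffic, had 139.6, 143.2 and 151.6 CPM in tibia, against 136.8, 144.7 and 159.3 CPM in femur, a log2 change of -0.02. Rab35, a recycling Rab, had a log2 change of -0.003. The bones overlapped for each of these 4 genes. Rab11a, which marks the recycling endosome, had the lowest adjusted p among the members for a difference between the mice. It had 98.7, 99.9 and 98.7 CPM in tibia of mouse 19, against 90.6, 89.9 and 84.4 CPM in its femur, and 86.0, 92.0 and 91.5 CPM in tibia of mouse 7, against 97.5, 100.7 and 88.0 CPM in its femur. The bones did not overlap in mouse 19 and did in mouse 7. The log2 change was 0.17 in mouse 19 and -0.09 in mouse 7, a difference of 0.25 (interval 0.09 to 0.42, adjusted p 0.0720 in edgeR).

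In late endosomes, lysosomes and autophagy, 7 genes were tested and 0 passed the threshold. Rab7, the Rab of late endosomes and of phagosome fusion with lysosomes, had 142.6, 152.4 and 155.2 CPM in tibia, against 142.1, 149.8 and 157.3 CPM in femur. Its log2 change was 0.01 and its interval, -0.06 to 0.08, lay within 1.1-fold. Rab32 had 226.2, 236.7 and 242.3 CPM in tibia, against 214.6, 224.0 and 236.1 CPM in femur (log2 change 0.06, interval -0.002 to 0.13). Its relative Rab38, which shares its role in pigment granules, had 0.475, 0.948 and 2.33 CPM in tibia, against 0.491, 1.147 and 2.08 CPM in femur, with an interval from -0.88 to 0.68 that allows no statement on change. Rab9, of transport from late endosomes to the Golgi, and Rab24, an unusual Rab linked to autophagy, had log2 changes of 0.02 and 0.06. Rab36, a relative of Rab34 at the Golgi and lysosomes, had 8.49, 9.87 and 10.8 CPM in tibia, against 10.3, 11.04 and 12.9 CPM in femur, so the bones overlapped slightly. Its log2 change was -0.22 (SE 0.097, interval -0.42 to -0.02, adjusted p 0.188 in edgeR). Rab39, an endosomal Rab, had 1.89, 2.62 and 5.38 CPM in tibia, against 2.47, 3.95 and 5.08 CPM in femur, with the most negative log2 change of the tested members, -0.39 (interval -0.80 to 0.02, adjusted p 0.269).

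Regulated secretion and granule genes, 5 tested, had 0 past the threshold between bones. Rab27a, which docks granules at the plasma membrane, had 191.2, 201.9 and 212.8 CPM in tibia, against 190.1, 203.1 and 223.2 CPM in femur. Rab3d, of secretory granules, had 182.2, 200.2 and 208.9 CPM in tibia, against 180.5, 205.8 and 216.5 CPM in femur. Rab44, known in mice from mast cells and osteoclasts, had 188.8, 211.3 and 231.6 CPM in tibia, against 173.0, 211.0 and 231.7 CPM in femur. The log2 change was -0.03 for Rab27a and for Rab3d and 0.02 for Rab44, and the bones overlapped for all 3. Rab3a, the synaptic vesicle Rab, had the most positive log2 change of the tested members, 0.26, at 4.67, 5.63 and 6.22 CPM in tibia, against 3.54, 4.63 and 5.35 CPM in femur (interval -0.02 to 0.55, adjusted p 0.283 in edgeR). In the group of other or less known members, Rab28 and Rab40c had log2 changes of 0.12 and 0.09 and Rab23, an inhibitor of Hedgehog signalling, -0.11, with 0 of the 3 past the threshold.

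The 2 animals were then taken apart. Within mouse 19, edgeR called 0 members higher, against 2.96% of genes, and 0 lower, against 2.21%. At an unadjusted p under 0.05 stood 5 members, all on the higher side (Rab5c, Rab11a, Rab20, Rab28 and Rab32), and 17.2% of all genes did. Within mouse 7, 0 members were called higher, against 4.37% of genes, and 1 lower, Rab43, against 5.36%, and at an unadjusted p under 0.05 stood Rab1b and Rab2a on the higher and Rab19 and Rab43 on the lower side, 4 of 42, against 22.8% of all genes. For the difference of the bone contrast between the mice, 0 members were called, against 4.74% of genes, and 3 stood at an unadjusted p under 0.05 (Rab11a, Rab19 and Rab43), as did 15.3% of all genes. A total of 33 members had a positive log2 change in mouse 19, where 50.3% of all genes did, and 18 did in mouse 7, where 48.1% of all genes did. The medians of the members were 0.04 in mouse 19 and -0.02 in mouse 7. The sign was the same in both mice for 17 members, 40.5%, against 56.9% of all genes, and 0 members had bones without overlap on the same side in both mice, against 5.2% of genes. Rab5c illustrates this, with no overlap in mouse 19 (318.1 to 342.6 CPM in tibia, against 299.8 to 315.3 CPM in femur) and full overlap in mouse 7 (303.9 to 322.7 CPM in tibia, against 304.4 to 310.6 CPM in femur).

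The libraries were next compared between the animals, with both bones of each. For 5 members, 11.9%, the 6 libraries of mouse 19 did not overlap the 6 of mouse 7, a share close to the 11.3% over all genes, and all 5 were higher in mouse 19. They were Rab37, Rab44, Rab3d and Rab27a, which are 4 of the 5 tested granule members, and Rab4b, a Rab of early and recycling endosomes. In the fifth granule gene, Rab3a, the animals overlapped. Rab37, a granule Rab known from mast cells, had a low, median and high of 6.27, 7.27 and 7.63 CPM in mouse 19, against 2.99, 3.56 and 4.46 CPM in mouse 7, a log2 ratio of 0.94. Rab44 had 219.0, 224.3 and 231.7 CPM in mouse 19, against 173.0, 197.0 and 202.9 CPM in mouse 7. Rab3d had 205.5, 210.5 and 216.5 CPM in mouse 19, against 180.5, 185.4 and 199.5 CPM in mouse 7. Rab27a had 206.1, 213.4 and 223.2 CPM in mouse 19, against 190.1, 191.4 and 197.6 CPM in mouse 7, and Rab4b had 67.5, 75.2 and 82.3 CPM in mouse 19, against 57.2, 64.4 and 65.5 CPM in mouse 7. With 1 animal on each side there is no test.

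Summed markers of several cell types also differed between the animals. The summed level of 9 mature neutrophil markers, S100a8 and S100a9 among them, had a low, median and high of 25834, 29303 and 31445 CPM in mouse 19, against 17386, 18136 and 19244 CPM in mouse 7. The sum of 8 granulocyte precursor markers was 1357, 1679 and 2060 CPM in mouse 19, against 832, 1033 and 1418 CPM in mouse 7. Mast cell and basophil markers overlapped, at 39.0 to 61.6 CPM in mouse 19 and 37.2 to 55.2 CPM in mouse 7, and the mast cell proteases Mcpt4 and Tpsb2 were at 0 in all libraries. The animals did not overlap for eosinophil markers, at 270.1 to 413.1 CPM in mouse 19 and 133.7 to 184.7 CPM in mouse 7. Nor did they for erythroid markers (13.8 to 31.9 CPM in mouse 19 and 7.87 to 12.9 CPM in mouse 7) or T and NK cell markers (20.99 to 30.9 CPM in mouse 19 and 11.1 to 18.2 CPM in mouse 7). The macrophage sum was lower in mouse 19, at 15862 to 16786 CPM against 16980 to 19539 CPM in mouse 7. So was the stromal and endothelial sum, at 34.7 to 46.6 CPM against 48.6 to 70.1 CPM in mouse 7. Most of the macrophage sum was Lyz2, with a median of 13431 CPM in tibia and 14492 CPM in femur. Most of the stromal and endothelial sum was Pecam1, with medians of 38.1 CPM in tibia and 46.5 CPM in femur. A single gene thus largely carries each sum, and neither gives the share of the named cells. Between bones, the granulocyte precursor sum was 1178, 1545 and 2060 CPM in tibia, against 832, 1122 and 1686 CPM in femur, with 6 of 8 markers called higher, and the mature neutrophil sum was 17790, 24147 and 31445 CPM in tibia, against 17386, 22467 and 29556 CPM in femur, with 3 of 9 markers called higher and 2, Retnlg and Mmp8, lower. Dendritic cell markers did not overlap between the bones, at 71.6 to 99.4 CPM in tibia and 99.7 to 119.4 CPM in femur, with 3 of 8 called lower. The part of these cells in the Rab values was not tested. All 10 macrophage markers in the table were expressed above the filter, with Csf1r at 884.9 to 1010.1 CPM in tibia and 783.1 to 1128.2 CPM in femur. Their sum was 15862, 16883 and 17719 CPM in tibia, against 16317, 17862 and 19539 CPM in femur, with Mertk called higher and Lyz2 lower. Csf1r had a log2 change of 0.21 within mouse 19 (adjusted p 0.000185 in edgeR) and -0.14 within mouse 7 (adjusted p 0.00708), and the changes differed between the mice (adjusted p 2.2e-05). Emr1, Fcgr1, Itgam and C1qa also differed between the mice, each with a positive log2 change in mouse 19 and a negative one in mouse 7. Among the Rab members, 33 had a positive change in mouse 19 and 18 in mouse 7, and the part of the macrophage markers in this was not tested.

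**Figure D3:**
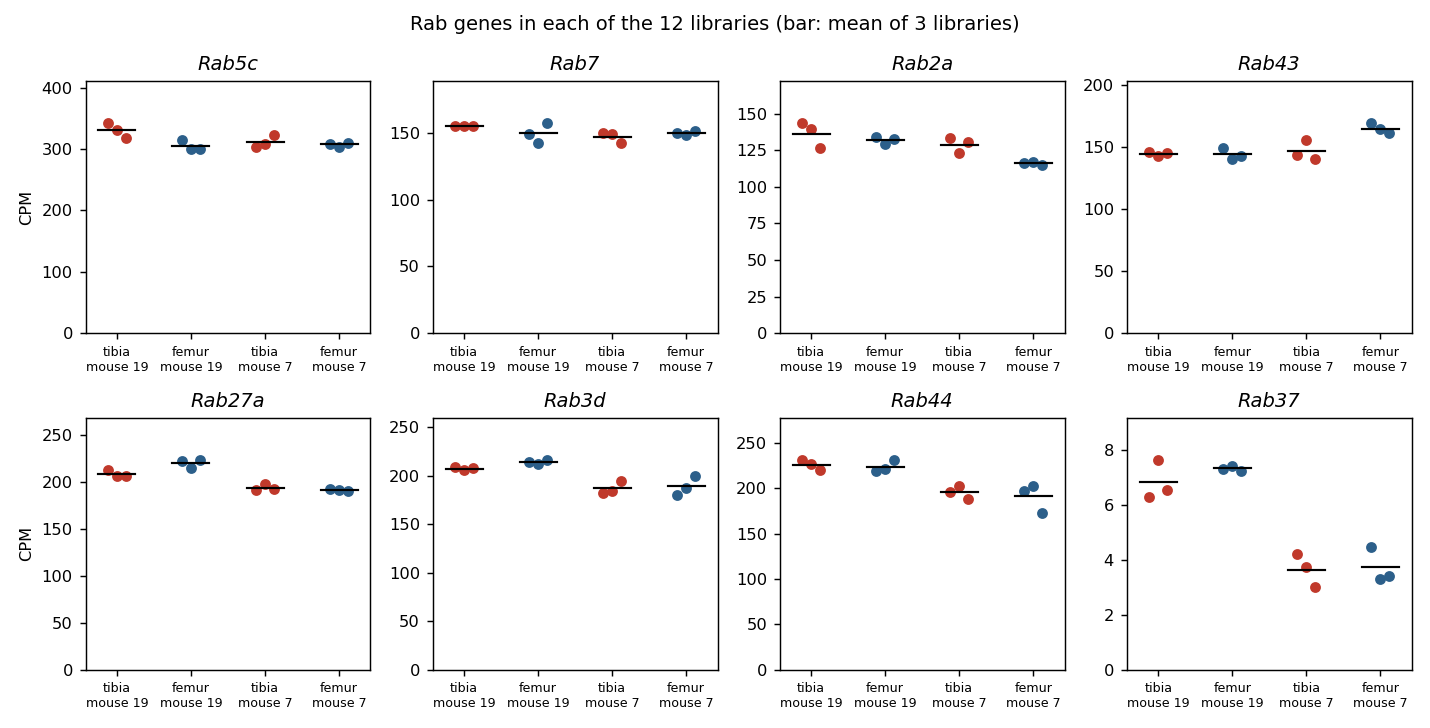
CPM of 8 Rab genes in each of the 12 libraries, with tibia and femur of mouse 19 on the left and those of mouse 7 on the right and a bar at the mean of 3 libraries. Rab7 lies between 142.1 and 157.3 CPM in all 12 libraries. Rab2a is lowest in the femur of mouse 7 at 114.9 to 117.2 CPM, and Rab43 is highest there at 161.1 to 169.5 CPM. The lower panels show the 4 granule genes without overlap between the animals, each higher in both bones of mouse 19. Rab3a, the other tested granule gene, overlapped between the animals and is not shown.

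Genes for the proteins that run the Rab cycle were counted in the same test. Of 122 such genes in 4 lists, 111 were tested, 2 were called higher and 5 lower, together 6.31%, near the 7.2% over all genes. Prenylation and delivery genes had 1 of 9 higher and 1 lower, with a median log2 change of -0.04. Exchange factors had 1 of 33 higher and 2 lower (median -0.06). At an unadjusted p under 0.05 stood 14 of the 33, against 20.8% of all genes. All of these but Rab3il1 and Rab3gap2 were on the lower side. The summed level of the exchange factors did not overlap between the bones, at 2253 to 2329 CPM in tibia and 2339 to 2503 CPM in femur. GAPs had 0 of 33 higher and 1 lower (median -0.03), with 6 at an unadjusted p under 0.05, all on the lower side. Effectors had 0 of 36 higher and 1 lower (median -0.04), with 7 at an unadjusted p under 0.05, all but Rab11fip5 on the lower side.

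Rab3il1, an exchange factor of the Rab8 group that also binds Rab3a, rose in MSC-treated tibia and was the 1 gene of these lists called on sums per animal. It had 13.4, 19.2 and 24.2 CPM in tibia, against 7.30, 10.2 and 11.6 CPM in femur, without overlap. The log2 change was 0.93 (SE 0.098, adjusted p 8.85e-07 over libraries and 0.00228 on sums, edgeR), and it was 1.02 within mouse 19 and 0.84 within mouse 7. Its substrates Rab8a and Rab8b had the near-level values given above. Lrrk2, the kinase that phosphorylates Rab8a, Rab10, Rab12 and Rab35 among others, fell to 146.4, 158.5 and 176.2 CPM in tibia, against 169.9, 188.6 and 191.5 CPM in femur. The bones overlapped over both mice. The log2 change was -0.23 (SE 0.038, adjusted p 0.000371 over libraries and 0.110 on sums, edgeR), at -0.21 in mouse 19 and -0.25 in mouse 7. The calls of Rab3il1 and Lrrk2 held with each of the 12 libraries left out in turn.

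The other 5 calls were small and depended on single libraries and on the model, since all 5 were lost without the mouse term and those of Gdi2, Chml and Rin3 also with a block by library number. Gdi2, a GDP dissociation inhibitor that extracts Rabs from membranes, rose to 581.0, 597.6 and 623.4 CPM in tibia, against 552.7, 560.9 and 581.9 CPM in femur (log2 change 0.10, adjusted p 0.0342 in edgeR). Chml, an escort protein for prenylation, fell by 0.18 on the log2 scale (adjusted p 0.0447). Rin3, an exchange factor of the Rab5 group, fell by 0.12 (adjusted p 0.0474), Dennd5a, another exchange factor, fell by 0.12 (adjusted p 0.0184), and Tbc1d20, a GAP for Rab1, fell by 0.17 (adjusted p 0.0199), all in edgeR. On sums per animal their adjusted p ran from 0.359 to 0.585. Leaving out 1 library lost the call of Gdi2 in 7 of 12 cases (adjusted p up to 0.0793), of Chml in 10 (up to 0.118) and of Rin3 in 9 (up to 0.125). Dennd5a missed the threshold when femur library 1 of either mouse, or tibia library 2 of mouse 7, was left out (up to 0.0566). Tbc1d20 missed it when femur library 1 of mouse 7, or tibia library 2 or 3 of mouse 19, was left out (up to 0.0537).

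**Figure D4:**
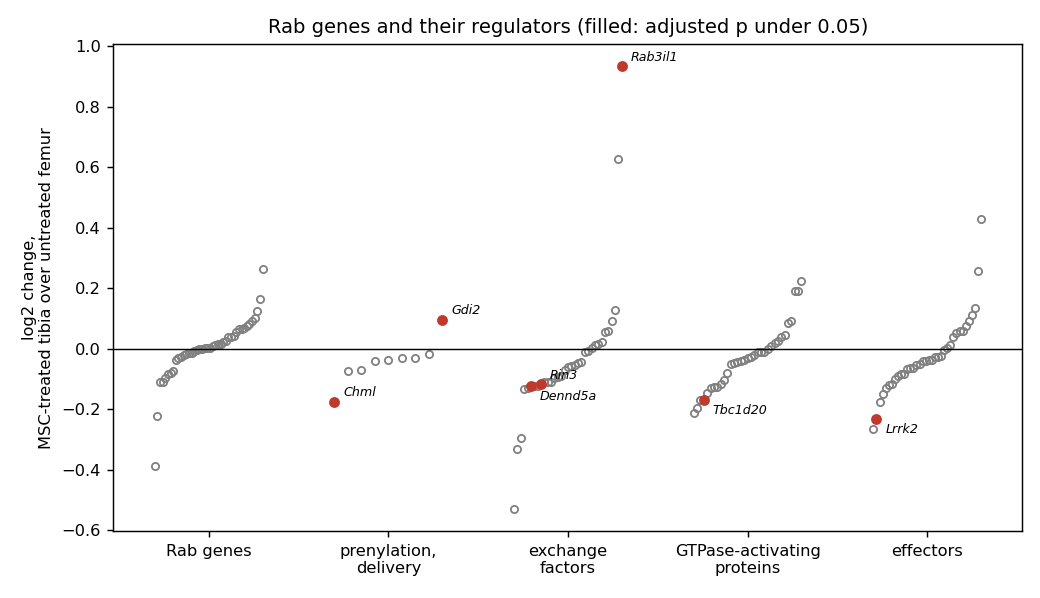
Log2 change, MSC-treated tibia over untreated femur, of each tested Rab gene and of each tested gene in 4 lists of Rab regulators and effectors, ordered by size within each list. Filled points passed the threshold in edgeR over 12 libraries: 0 of 42 Rab genes and 7 of 111 regulators and effectors, with Rab3il1 highest at 0.93.

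Reads of close copies can be split between them, so the coding sequences of the members were compared. The closest pair of tested members was Rab6a and Rab6b, at 78.4% identity of coding bases, followed by Rab8a and Rab8b at 77.4%, Rab5b and Rab5c at 76.5%, Rab1 and Rab1b at 76.1% and Rab11a and Rab11b at 75.2%. Over 861 pairs the median identity was 51.8%, and 0 pairs shared an identical run of 50 bases or more. Some members also overlap other genes. Of its exon bases, Rab24 shares 62.4% with Prelid1 on the opposite strand, Rab4b 65.0% with Gm21983 on the same strand, Rab20 25.6% with E230013L22Rik and Rab6a 19.0% with Mrpl48, both on the opposite strand. Without the strand setting of the counting, reads from such stretches cannot be assigned.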

How the data were processed

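The deposited table holds raw read counts per gene, in whole numbers, for 12 libraries; 0 columns were unmapped. Per the submitters' processing notes, mm10 was the build and bcl2fastq, HISAT2, featureCounts, Subread and DESeq2 were used. Totals were 9773455 to 14869150 counts. Of counts from 1 to 10, 69.8% were even, so a count of 0 was taken to allow 3 fragments, or 6 counts. That floor covers counting error only. Intervals come from edgeR's quasi-likelihood fit, so they also include the spread between libraries but do not measure the spread between animals.

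Counts were tested in R 4.3.3 with edgeR 4.0.16, after tests on simulated data: TMM, filterByExpr over mouse and bone with a minimum count of 10, two-sided quasi-likelihood test, threshold 0.05 on the Benjamini-Hochberg adjusted p over 11806 genes. The mouse was a term, since the titles give both bones of an animal its number. Contrasts within mice used 4 means fitted to all 12 libraries. Libraries of the same bone and animal differed beyond sampling noise (chi-square per gene 1.39 to 3.27 on halved counts) and were kept apart. CPM uses TMM-scaled totals. Exon lengths, coding sequences and coordinates are from GENCODE M21 (GRCm38), which held all 57 members, 1 under another symbol. Named are every called member, a list of landmarks and up to 4 called regulators per list; others, such as Rab36, Rab3a and Rab4b, were named after their values were seen. Members, lists and rules were chosen with earlier results of these data known. Alternatives were RLE scaling, other filters, halved counts, DESeq2 1.42.0, blocks and leaving out each library.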

Additional observations from a re-analysis of the deposited data

How the results depend on the processing

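Over the 12 libraries, 0 members were higher or lower with RLE scaling, no filter, a 5 CPM filter, halved counts, DESeq2, no mouse term and the block by library number. Leaving out each library gave 0 to 1 higher, the 1 being Rab2a without tibia library 3 of mouse 19 (adjusted p 0.0267), and 0 lower. For the difference between the mice these counts ran from 0 to 1, being 1 without tibia library 1 of mouse 7 (Rab19, 0.0389), tibia library 1 of mouse 19 (Rab19, 0.0477) or femur library 3 of mouse 7 (Rab11a, 0.0195). Within mouse 7, alternatives chosen after seeing the data gave 0 to 1 lower when 1 library was left out, and Rab43 kept its call in 13 of 17 alternatives. Without tibia library 1 of mouse 7, Rab19 was called in its place (0.0453). Members higher within mouse 7 numbered 1 (Rab2a, 0.0489) with the 5 CPM filter and 0 to 1 with 1 library left out (Rab2a without tibia library 2 or 3 of mouse 19), and members higher within mouse 19 0 to 1, Rab5c without its tibia library 3 (0.0333) or Rab28 without its femur library 3 (0.0450).

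Same-numbered tibia and femur libraries deviated from their group means with correlations of -0.13 to 0.07, against -0.17 to 0.14 for differently numbered ones. With 3 libraries per bone and mouse, these values cannot show whether same-numbered libraries were handled together. With the replicate block by library number, 0 members were called (lowest adjusted p 0.162) and 641 genes in all, against 850 without it. Of all genes, 74 were called without the mouse term and 563 at the lowest with 1 library left out. Of 25 landmark members, 13 changed sign under at least 1 alternative, and only Rab38 among those had a change over 0.05 in size. The cause of these shifts was not tested. Depth limits members under 20 CPM, and 2 animals limit all statements beyond these libraries.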
